A study of Mus musculus with 6 samples.

Results

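The loci described here are 36 genes counted under a placeholder symbol, though some have a gene name in RefSeq. All were almost unread in control embryonic stem cells and were read in the Rif1-KO-labelled libraries. They were chosen by raw counts, as the symbols written as Gm plus digits (33 loci) or ending in Rik (3 loci) whose raw counts summed to 8 or less over the 3 control libraries and to 30 or more over the 3 Rif1-KO-labelled libraries. They were drawn from 11732 such symbols in a table of 33924. RNA was sequenced from cultures of E14, an established line of mouse embryonic stem cells, on gelatin-coated plates in 2i medium, which holds such cells in naive pluripotency with 2 kinase inhibitors. For both groups the labels give 2i medium, and 0.1 µM 4-hydroxytamoxifen (4-OHT) for 2 days followed by 1 day without it. The control libraries are labelled WT and the others Rif1-KO, but the column headers carry 2i only in the control libraries and TAM only in those labelled Rif1-KO, so medium, drug and genotype cannot be told apart with certainty. The sources used here do not give how Rif1 was disrupted, in which clone, or whether replicates are separate cultures, and p-values therefore measure only the spread between these libraries.

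Names of the Gm and Rik kind are given to genes or transcripts for which no function has been assigned, and many of them are copies of other genes. Copies made from a spliced messenger RNA lack introns and are called processed pseudogenes where they are thought not to code for protein. Several such families are transcribed in the two-cell mouse embryo and in the rare two-cell-like cells of stem cell cultures, a state driven by the transcription factor DUX, which binds promoters in repeats of the MERVL retrovirus. RIF1, the product of the targeted gene, is known to act in the timing of replication, in the repair of breaks and in silencing repeats and two-cell genes.

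Library totals ran from 8383632 to 10980777 counts. Rif1 itself stood at 673, 657 and 700.1 CPM (library-size scaled counts, in the usual CPM unit) in control and at 602, 604 and 664 CPM in the Rif1-KO-labelled libraries. It did not pass (log2 fold change −0.12 ± 0.05 SE, adjusted p = 0.0509, quasi-likelihood test of edgeR, p adjusted after Benjamini and Hochberg), but passed as a fall under 6 of 11 alternatives. A count over the whole gene does not show a deletion of some exons, so this value checks neither group's label. The 6 embryonic stem cell markers Pou5f1, Nanog, Sox2, Zfp42, Esrrb and Klf4 were expressed in both groups, at a sum of 3405 to 3444 CPM in control and 3219 to 3288 CPM in the Rif1-KO-labelled libraries. Among them Sox2 fell from 683 CPM to 469 CPM, Nanog and Klf4 rose (log2 fold changes −0.54, 0.11 and 0.18), and the other 3 did not pass. Of all tested genes, 26.1% rose and 24.8% fell. Of markers of other cell types, 3 of 3 germ cell genes rose (summed range 101 to 111 CPM in control, 197 to 207 CPM in the Rif1-KO-labelled libraries), 3 of 3 tested primitive endoderm genes rose (summed means 10.5 and 15.4 CPM), and 0 of 1 tested trophectoderm genes passed (Eomes, 8.58 and 9.63 CPM). The trophectoderm list summed to 8.76 to 9.48 and 10.5 to 11.2 CPM, with Gata3 at 8 and 35 counts and Cdx2 at 0 in all libraries. Nes, the 1 tested neuroectoderm gene, rose (46.2 and 99.8 CPM), while Pax6 had 9 and 12 counts. Kdr, the 1 tested mesoderm gene, rose, while T had 28 and 25 counts and Mesp1 0 and 3. Of 2 tested fibroblast genes, Thy1 fell and Col1a1 did not pass, while Col1a2 had 9 and 27 counts and Col3a1 5 and 4. The fibroblast sum ranged from 11.2 to 18.8 and from 8.53 to 9.09 CPM. The part of these cell types in the results below was not tested.

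Because the rule uses the counts of both groups, the levels below describe what was chosen and no test is given for any of the 36. The nearest loci inside the limits were Gm12495, with 7 control counts and 30 in the Rif1-KO-labelled libraries, D630042P16Rik with 7 and 32, and Gm13078 with 0 and 31. Just outside stood Gm2237 with 8 and 29 counts and 3830417A13Rik with 4 and 29. Gm15910, with 9 and 66, and Gm4840, with 9 and 264, missed only the control limit. The limits thus cut through a continuous range and exclude loci as strongly read as those included. By the same limits 85 of 22192 other symbols were found (0.383%, against 0.307% of Gm and Rik symbols). With the groups exchanged the limits gave 2 Gm or Rik symbols, among them 1700060C20Rik (12, 12 and 15 control counts, and 2, 1 and 1), and 4 others.

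The sequences that define the most read family are shown first. Of the 36, 5 are near-identical copies on chromosome 12 of the gene for eIF1A, a factor that helps the small ribosomal subunit scan messenger RNA: Gm5662, Gm2016, Gm8300, Gm2035 and Gm8332. Each has a coding part of 432 bases in the GENCODE vM21 annotation of GRCm38. Printed below are the 60 coding bases, from base 231 of the coding part, in which the other copies together differ most from Gm5662. The X-linked gene Eif1ax is printed beside them, and capitals mark each base that differs from Gm5662.
Gm5662: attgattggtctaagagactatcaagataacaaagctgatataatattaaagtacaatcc
Gm2016: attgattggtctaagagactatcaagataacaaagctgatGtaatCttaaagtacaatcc
Gm8300: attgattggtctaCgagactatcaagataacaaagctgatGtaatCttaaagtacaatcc
Gm2035: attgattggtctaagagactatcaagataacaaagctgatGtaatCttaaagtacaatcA
Gm8332: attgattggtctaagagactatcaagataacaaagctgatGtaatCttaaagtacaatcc
Eif1ax: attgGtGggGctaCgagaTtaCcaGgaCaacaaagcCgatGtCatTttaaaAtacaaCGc
In that build the stretches lie at chr12:88271699-88271758 (minus strand) for Gm5662, chr12:87876815-87876874 (plus) for Gm2016, chr12:87517127-87517186 (plus) for Gm8300, chr12:87919568-87919627 (minus) for Gm2035 and chr12:88249811-88249870 (minus) for Gm8332. That of Eif1ax crosses an intron within chrX:159378565-159379764 (plus). Over the whole coding part, Gm5662 differed from Gm2016 at 4 bases, from Gm8332 at 6, from Gm8300 at 8 and from Gm2035 at 9, but from Eif1ax at 66. The copies are thus far closer to each other than to Eif1ax, and Gm8332 and Gm2016 are identical across the printed stretch. Eif1a, the other expressed gene of the family, is not printed. It was 95.2% identical to Gm8332 and 94.5% to Gm2035 over 434 bases. Over longer alignments it was 88.8% identical to Gm2016, 88.45% to Gm5662 and 87.2% to Gm8300.

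All 5 Eif1a-like loci were at or near 0 in control and read in each Rif1-KO-labelled library. Gm5662 stood at 0.216, 0 and 0.221 CPM in control and at 9.13, 9.60 and 9.19 CPM in the Rif1-KO-labelled libraries. Gm8300 stood at 0, 0.121 and 0.332 CPM and at 8.40, 6.06 and 7.98 CPM. Gm2016 had no control count and 4.88, 4.75 and 5.25 CPM. In each of these the lowest Rif1-KO-labelled library lay above the highest control library. Gm2035 went from 1 count in the 3 control libraries to 21, 31 and 17 counts, and Gm8332 from 1 to 21, 19 and 10. Summed over the 5 loci, the control libraries held 0.374 ± 0.251 CPM and the Rif1-KO-labelled libraries 25.7 ± 0.461 CPM (SD, n = 3), a ratio of counts of 68.2 (95% interval 36.9 to 143, counting error only). No other family of the 36 summed to as many reads, and its sum varied little among the Rif1-KO-labelled libraries. In RNA from whole cultures, a high level in few cells and a low level in many cannot be told apart.

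Reads of single copies are uncertain, because the sources used here do not say how multiply mapped reads were counted. Gm8332 shared 100% of its 50-base stretches with other genes, Gm2016 81.3%, Gm5662 77.9%, Gm2035 76.4% and Gm8300 26.6%. Gm5662 shared 72.1% of its stretches with Gm2016. BB287469, a further Eif1a-like gene of the same chromosome, whose protein is 97.2% identical to that of Gm5662, lies outside the 36 because of its name. It stood at 0.216, 0.121 and 0 CPM in control and at 4.52, 4.14 and 4.05 CPM in the Rif1-KO-labelled libraries. The ratio of its counts was 37.6 (95% interval 12.6 to 185). Like those of the 36 that passed the filter on low counts, it did so only through the Rif1-KO-labelled libraries, so no call is given. Copies with fewer counts and no test had 0 control counts and 10 (Gm2056), 10 (Gm2075) and 7 (Gm4027). The expressed genes of the family changed by less. Eif1ax fell from 137 ± 2.32 CPM to 103 ± 7.13 CPM (log2 fold change −0.41 ± 0.05, adjusted p = 2.67e-06, edgeR). Eif1a rose only from 183 ± 0.373 CPM to 199.9 ± 7.07 CPM (0.13 ± 0.05, adjusted p = 0.0252, edgeR), a call lost under 6 of 11 alternatives.

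**Figure D1:**
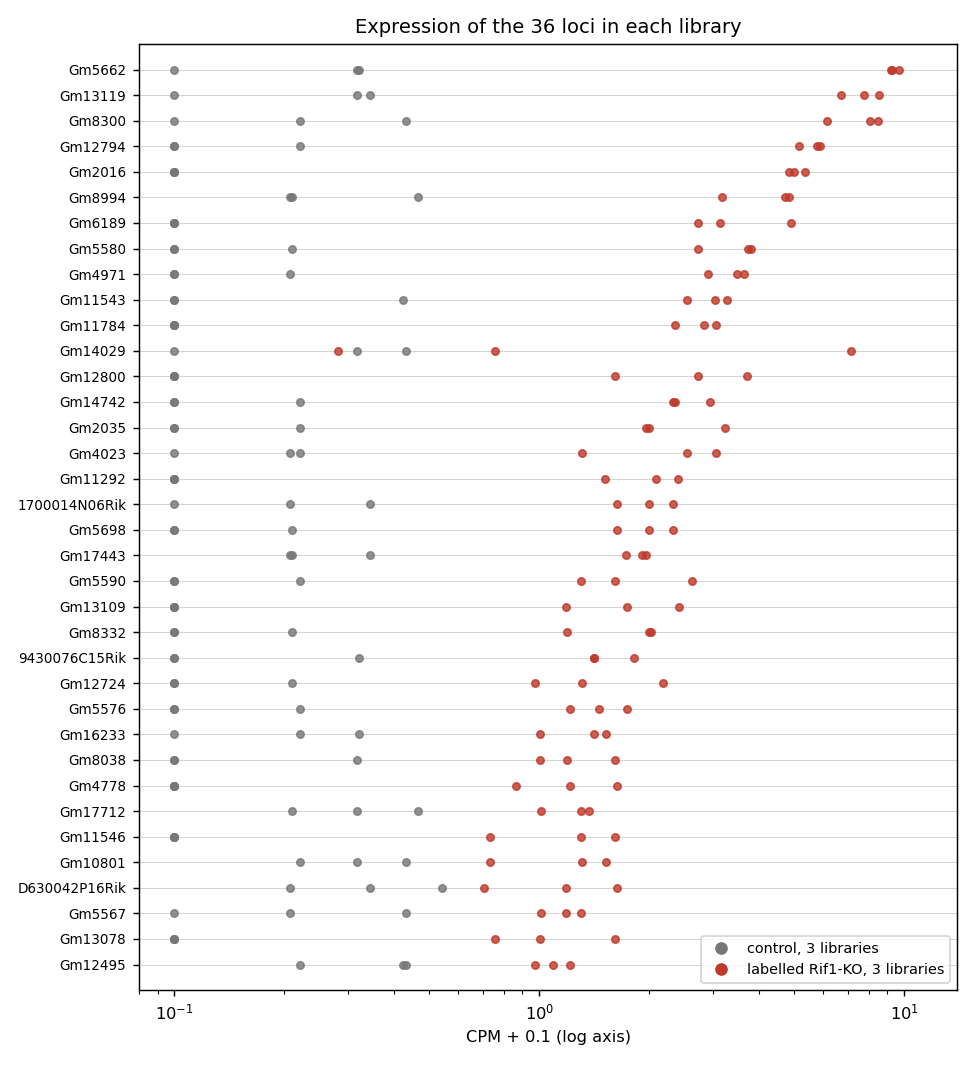
CPM plus 0.1 on a log axis for the 36 loci (rows, ordered by mean level in the Rif1-KO-labelled libraries), with 1 point for each of 3 control libraries (grey) and 3 Rif1-KO-labelled libraries (red). The groups do not overlap in 35 rows. In the row of Gm14029, 1 red point lies far above the others.

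The plot of expression by library shows the same division for nearly all loci, which the limits of the selection make likely. In 35 of 36 every Rif1-KO-labelled library lay above every control library, as did 29.4% of the 14250 tested genes. No control library exceeded 0.442 CPM for any of them, and 9 had no control count at all. Mean levels in the Rif1-KO-labelled libraries ran from 0.993 CPM for Gm12495 to 9.30 CPM for Gm5662, with a median of 1.88 CPM. Only 24 of the 36 passed the filter on low counts that precedes the test, and they did so through the Rif1-KO-labelled libraries, so their calls are not counted here (26.1% of tested genes rose and 24.8% fell). Summed over all 36, the control libraries held 3.05 ± 0.435 CPM and the Rif1-KO-labelled libraries 94.4 ± 4.21 CPM (SD, n = 3). The exception was Gm14029, annotated as an antisense RNA beside the phosphate transporter gene Slc20a1. It had 2, 0 and 3 counts in control and 2, 70 and 6 in the Rif1-KO-labelled libraries, so 1 library holds nearly all of its reads. Without Gm14029 the 35 other loci summed to 2.87 ± 0.363 and 91.7 ± 2.31 CPM.

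The PRAME family contributed 5 loci on chromosome 4. Its members encode leucine-rich repeat proteins and many are known from germ cells and early embryos. Gm13119 (Pramel31 in RefSeq) stood at 0.216, 0.243 and 0 CPM in control and at 6.60, 7.68 and 8.42 CPM in the Rif1-KO-labelled libraries. Gm12794 (Pramel19) stood at 0, 0.121 and 0 CPM and at 5.06, 5.66 and 5.80 CPM. Gm12800 had no control count and 2.62, 1.52 and 3.61 CPM. All of these were higher in each Rif1-KO-labelled library than in any control library, by 145-fold for Gm12794 (1 and 165 counts, 95% interval 25.7 to 5775) and by at least 22.6-fold for Gm12800. Gm13109 (Pramel16) and Gm13078 (Pramel24) were less read, with 0 control counts and 12, 23 and 15, and 10, 15 and 6 counts.

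The 5 PRAME loci summed to 0.194 ± 0.183 CPM for the control libraries and to 18.4 ± 1.95 CPM for the Rif1-KO-labelled libraries (SD, n = 3), a ratio of counts of 96.7 (95% interval 41.2 to 299). Gm12794 and Gm12800 are 96.6% identical in sequence over 1455 aligned bases, and Gm13119 is only 67.5% identical to Gm12800, so the family is divided into near copies and distant relatives. Of the distant relatives, Pramef12 was read in control and rose from 59.0 ± 3.97 CPM to 125 ± 3.52 CPM (log2 fold change 1.08 ± 0.06, adjusted p = 6.09e-12, edgeR). Pramef8 rose from 15.8 ± 2.73 CPM to 20.8 ± 0.170 CPM (0.39 ± 0.11, adjusted p = 0.00521, edgeR). Among closer copies, Pramef6 (93.9% identical to Gm13078) went from 0 to 21 counts and BC080695 (96.0% identical to Gm13119) from 1 to 16. Gm13101 and Gm13106, also close to Gm13119, had 0 control counts and 5 and 6. Gm13040, Gm13043 and Gm13057, each 96.4% identical to Gm13119, were not read in any library, nor were Pramel4 and Pramel5. The relatives thus ran from unread in all libraries to well read in both groups.

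A further 3 loci on chromosome 6 are copies of Eif4a3, which encodes the RNA helicase at the core of the exon junction complex. Gm8994 (Eif4a3l1) stood at 0.108, 0.364 and 0.111 CPM in control and at 4.61, 4.75 and 3.06 CPM in the Rif1-KO-labelled libraries. Gm5580 (Eif4a3l2) stood at 0, 0 and 0.111 CPM and at 3.71, 3.64 and 2.62 CPM. Gm5576, annotated as a processed pseudogene, had 1 control count and 15, 11 and 15 counts. In all 3 loci each Rif1-KO-labelled library exceeded each control library, and replicate 3 was the lowest of its group for Gm8994 and Gm5580. The proteins encoded by Gm8994 and Gm5580 are 96.1% and 97.1% identical to that of Eif4a3, and the transcripts of these 2 loci 98.5% identical to each other. Eif4a3 itself fell from 120.3 ± 0.932 CPM to 97.5 ± 5.78 CPM (log2 fold change −0.30 ± 0.05, adjusted p = 5.97e-05, edgeR).

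**Figure D2:**
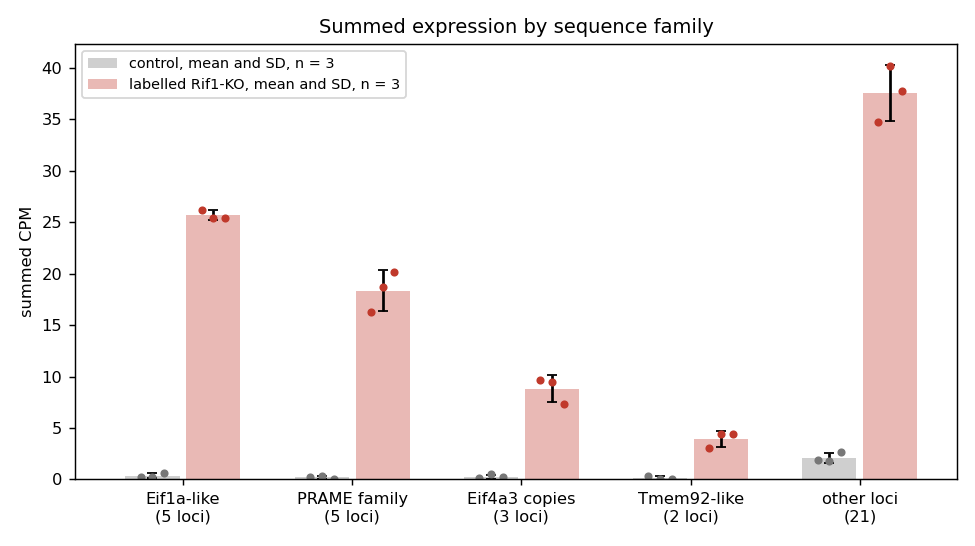
Summed CPM of the loci by sequence family in control (grey) and in the Rif1-KO-labelled libraries (red), with bars for the mean, whiskers for the SD (n = 3) and points for the libraries. The 5 Eif1a-like loci reach 25.7 CPM, the 5 PRAME loci 18.4 CPM and the 21 loci outside the families 37.5 CPM.

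Gm6189 and Gm8038 are copies of expressed genes from elsewhere in the genome, and 1 of them is printed to show how far such a copy differs from its gene. Gm6189 on chromosome 1 is annotated as a processed pseudogene and aligns to the coding part of Gle1, the gene of a messenger RNA export factor, with 89.2% identity over 2099 columns. Printed below are the first 60 bases of Gm6189, at chr1:80385126-80385185 (minus strand, GRCm38), beside the coding bases of Gle1 from base 4, at chr2:29935503-29935562 (plus strand), with capitals in Gm6189 where it differs.
Gm6189: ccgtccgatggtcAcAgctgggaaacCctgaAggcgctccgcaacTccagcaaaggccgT
Gle1: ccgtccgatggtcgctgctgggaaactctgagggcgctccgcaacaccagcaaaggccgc
This stretch holds 6 differences. Gm6189 had no control count and stood at 2.62, 3.03 and 4.81 CPM in the Rif1-KO-labelled libraries, at least 30.2-fold higher. Gle1 did not pass the test, with 67.5 ± 2.18 CPM in control and 62.0 ± 4.06 CPM in the Rif1-KO-labelled libraries (log2 fold change −0.12 ± 0.06, adjusted p = 0.109, edgeR).

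Gm4971 on chromosome 7, annotated as a processed pseudogene, stood at 0.108, 0 and 0 CPM in control and at 2.80, 3.54 and 3.39 CPM in the Rif1-KO-labelled libraries. The groups do not overlap. Gm8038, a copy of the splicing factor gene Crnkl1 (89.5% identical), had 2 control counts and 10, 15 and 10 counts. Crnkl1 had 62.6 ± 3.89 and 54.6 ± 3.16 CPM (log2 fold change −0.20 ± 0.06, adjusted p = 0.0136, edgeR), a fall that did not pass under 3 of 11 alternatives. Gm8038 is 99.95% identical to a further copy, Gm4782, which had 0 control counts and 9, 10 and 6 counts and so lay outside the limits, and Gm5989 had 0 and 18 counts.

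**Figure D3:**
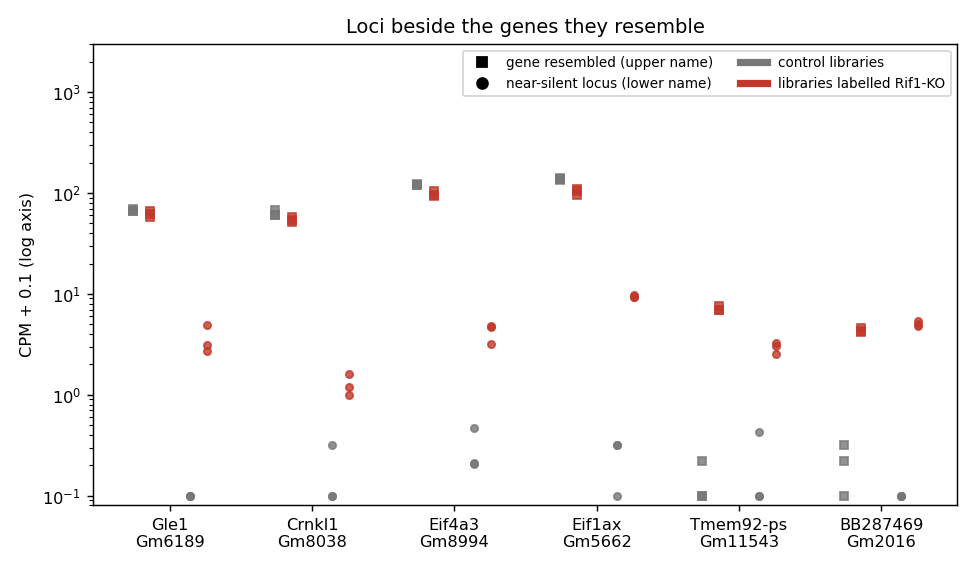
CPM plus 0.1 on a log axis for 6 genes (squares, upper names) and a near-silent locus of similar sequence (circles, lower names) in control (grey) and in Rif1-KO-labelled libraries (red), 3 points each. The means of Gle1, Crnkl1, Eif4a3 and Eif1ax lie between 54.6 and 137 CPM in both groups, while Tmem92-ps and BB287469 are near 0 in control like the loci.

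A pair on chromosome 11, Gm11543 and Gm11546, resembles Tmem92, a gene for a transmembrane protein. The transcripts of the pair are 84.1% identical to each other. Gm11543 stood at 0.324, 0 and 0 CPM in control and at 2.44, 2.93 and 3.17 CPM in the Rif1-KO-labelled libraries, and Gm11546 had no control count and 7, 15 and 11 counts. The match of Gm11543 to Tmem92 falls on the row named Tmem92-ps, which had 1 control count and 212 counts (ratio 187, 95% interval 33.2 to 7410). Other copies were also higher: AA623943 had 1 and 49 (43.2, 7.39 to 1739), and Gm11545 had 55 and 225. Gm11545 was thus read in control, unlike the pair.

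Another 4 loci belong to gene groups of germ cells and early embryos. Gm11784 on chromosome 4 resembles the Speer4 genes, known from spermatogenesis, and had no control count and 2.26, 2.73 and 2.95 CPM in the Rif1-KO-labelled libraries. Of the Speer4 genes alike in sequence, Speer4c, Speer4d and Speer4f were not read in any library, while Speer4b had 1 control count and 7, Speer4e 0 and 3 and Speer4a 0 and 1. The copy Gm8540 had 4 and 22. Gm4778 (Spopfm1 in RefSeq) on chromosome 3 is 76.2% identical in protein to Tdpoz5, a gene of the two-cell embryo, and had 0 control counts and 17, 11 and 7 counts. Tdpoz5 was not read, but Tdpoz3, the nearest tested gene on 1 side, had 0 and 78 counts, at least 22.9-fold higher. Gm4023 on chromosome 7 is Obox4-ps33 in RefSeq, a pseudogene of an oocyte homeobox family, and stood at 0.108, 0.121 and 0 CPM in control and at 2.44, 1.21 and 2.95 CPM in the Rif1-KO-labelled libraries. Obox6 of that family did not pass (log2 fold change −0.36 ± 0.28, adjusted p = 0.297, edgeR). 1700014N06Rik on the X chromosome, a histone H2B gene (H2bfm), had 1, 2 and 0 control counts and 1.90, 2.22 and 1.53 CPM in the Rif1-KO-labelled libraries.

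Sequence also linked 2 noncoding loci of different chromosomes. Gm12724 on chromosome 4 and Gm14742 on the X chromosome have GENCODE transcripts that share 113 bases at their start, which Gm14742 precedes by 1 base, and then diverge. The first 140 bases of each transcript are printed with the identical part in capitals. They span chr4:106241216-106244736 (plus strand) and chrX:77802884-77803280 (minus strand) in GRCm38, with introns between.
Gm12724: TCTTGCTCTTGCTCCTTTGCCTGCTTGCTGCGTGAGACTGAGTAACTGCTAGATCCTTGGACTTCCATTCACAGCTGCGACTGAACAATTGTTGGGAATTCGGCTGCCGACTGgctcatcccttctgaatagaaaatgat
Gm14742: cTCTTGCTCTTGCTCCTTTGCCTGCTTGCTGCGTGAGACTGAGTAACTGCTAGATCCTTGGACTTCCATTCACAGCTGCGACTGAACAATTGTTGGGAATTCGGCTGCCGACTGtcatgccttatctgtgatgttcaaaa
Gm14742 stood at 0, 0.121 and 0 CPM in control and at 2.26, 2.22 and 2.84 CPM in the Rif1-KO-labelled libraries, and Gm12724 at 0, 0 and 0.111 and at 2.08, 1.21 and 0.875 CPM. The groups do not overlap in either. Gm12731, annotated over Gm12724 on the same strand, had 0 control counts and 10 in the Rif1-KO-labelled libraries. How reads over both were counted is not known here. The first exon of Gm8994 begins with a relative of this stretch (88.3% identical over 111 bases). Such a start was found in 151 GENCODE transcripts. Genes all of whose transcripts start this way number 69, but only 11 besides the loci have a row in the table. Of these, 8 were read and all 8 had a higher CPM in the Rif1-KO-labelled libraries, as did 12723 of all 24017 symbols read. These 8 held 25 counts in control and 94 in the Rif1-KO-labelled libraries in total (ratio 3.31, 95% interval 2.11 to 5.37). Most were counts of Gm16239 (19 and 52), the 1 tested gene among them, which rose (adjusted p = 0.0166, edgeR). The others had 0 to 3 control counts and 1 to 14 in the Rif1-KO-labelled libraries. Where only some transcripts start this way, 9 of 32 tested genes rose (28.1%) and 6 fell, near the 26.1% and 24.8% of all tested genes. These sets were chosen after their sequences and values were seen.

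The bases before the start of 3 loci share a short motif. RefSeq promoters (GRCm38.p6, 250 bases before to 50 after each start) matched 11 of the 36 loci. Printed below are 250 bases before the RefSeq start of Gm12724 (chr4:106236872-106237121, plus strand), 250 before that of Gm8994 (chr6:136327289-136327538, plus) and 160 within the promoter of Gm13119 (chr4:144357748-144357907, plus), with matches to GATTNAATC in capitals.
Gm12724: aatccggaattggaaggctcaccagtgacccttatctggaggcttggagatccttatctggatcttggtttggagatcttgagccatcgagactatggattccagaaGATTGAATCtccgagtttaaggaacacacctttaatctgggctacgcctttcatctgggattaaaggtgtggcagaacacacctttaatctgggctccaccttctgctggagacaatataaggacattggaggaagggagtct
Gm8994: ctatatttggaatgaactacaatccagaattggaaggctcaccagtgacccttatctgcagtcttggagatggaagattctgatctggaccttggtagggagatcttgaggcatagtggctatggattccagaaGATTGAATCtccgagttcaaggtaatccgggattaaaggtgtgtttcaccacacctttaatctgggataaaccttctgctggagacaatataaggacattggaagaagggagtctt
Gm13119: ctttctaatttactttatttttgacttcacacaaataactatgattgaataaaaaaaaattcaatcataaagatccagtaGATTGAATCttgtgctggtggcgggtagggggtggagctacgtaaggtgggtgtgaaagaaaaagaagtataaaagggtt
This letter string reads the same on both strands, so each match counts once, and it was chosen after these promoters were read. The match begins 143, 116 and 136 bases before the start of Gm12724, Gm8994 and Gm13119. The stretches of Gm12724 and Gm8994 align to each other with 77.0% identity over 257 columns, so their matches are not independent, whereas that of Gm13119 did not align to them. The RefSeq start of Gm12724 lies 4094 bases before the GENCODE start, and 47 bases there are identical to the start of the GENCODE transcript. The motif was found in 88 of 32851 promoters (0.268%). Among genes outside the 36 with this motif, 6 of 18 tested rose (33.3%) and 3 fell, against 26.4% that rose among all genes with a promoter. A match is a description of letters and not of a bound factor.

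The remaining loci were less alike. Gm11292, a noncoding transcript on chromosome 13, shared no stretch with another gene, and had no control count and 22, 14 and 21 counts in the Rif1-KO-labelled libraries. Gm5590 on chromosome 7 had 0, 0.121 and 0 CPM in control and 2.53, 1.52 and 1.20 CPM. Gm5698 on chromosome 1 had 1 control count and 21, 22 and 14 counts. Gm17443 and Gm17712, which matched no gene in the reference, had 4 and 6 control counts and 53 and 34 in the Rif1-KO-labelled libraries.

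D630042P16Rik, an older symbol of Ssu2, and Gm5567, an older symbol of Tmem178b, shared no stretch with another gene. Their ratios of counts were among the lowest, at 4.03-fold (95% interval 1.75 to 10.8) and 7.05-fold (2.50 to 27.4). 9430076C15Rik is an older symbol of Creb5, a gene for a transcription factor of the CREB family that has a row of its own. The row of 9430076C15Rik had 0, 0 and 2 control counts and 19, 13 and 12 counts, and that of Creb5 had 15, 7 and 9 and 134, 99 and 102 (log2 fold change 3.23 ± 0.21, adjusted p = 1.81e-10, edgeR). Both rows were higher in each Rif1-KO-labelled library than in any control library. Gm16233 lies opposite Clca6, which had 4 control counts and 35 in the Rif1-KO-labelled libraries, against 3 and 36 for Gm16233. The strand setting of the counting is not known here, so reads of this pair cannot be told apart. Gm10801 had 6 control counts and 32, and its copy Gm10800 had 49 and 211 (log2 fold change 1.92 ± 0.25, adjusted p = 2.22e-06, edgeR).

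The loci were also described by features that the rule did not use directly, though its choice of Gm and Rik symbols bears on them. Of 36, 31 have a GENCODE transcript, 16 of these annotated as protein coding, 10 as a pseudogene of some kind and the other 5 as noncoding RNA. RefSeq calls 4 of the 16 protein-coding loci a pseudogene. The 34 placed loci lie mainly on chromosomes 4 (8 loci), 6 (7 loci) and 12 (5 loci). Their longest transcripts have a median of 1348 bases and 2 exons, against 3273 bases and 8 exons for tested genes and 821 bases for Gm and Rik symbols. Over 50% of the 50-base stretches were found in another gene for 8 of the 31 (25.8%, against 4.88% of tested genes and 21.1% of Gm and Rik symbols). Under 10% were shared by 7 of 31 (22.6%, against 80.1% and 57.4%). These shares are a description of the 31 loci, and no test was made of them. The share over 50% is near that of all Gm and Rik symbols. For chromosomes and exon numbers no value over all Gm and Rik symbols is given here.

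**Figure D4:**
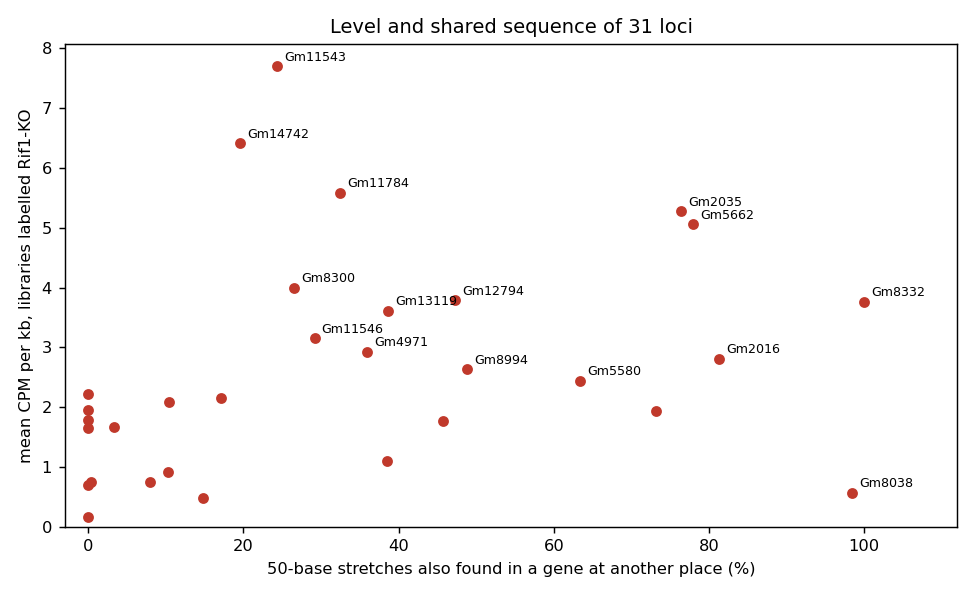
Mean CPM per kb of transcript in the Rif1-KO-labelled libraries (y axis) against the percentage of 50-base stretches also found in a gene at another place (x axis), 1 point for each of 31 loci. High levels per kb occur at 24.3% shared (Gm11543) and at 77.9% shared (Gm5662), and Gm8038, at 98.4% shared, is among the lowest.

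The loci with the highest level per length included both widely and sparsely shared ones. Per kb of transcript, the level in the Rif1-KO-labelled libraries was highest for Gm11543 (7.70 CPM per kb), Gm14742 (6.41), Gm11784 (5.58), Gm2035 (5.28) and Gm5662 (5.06), and lowest for Gm5567 (0.171). Gm11543, Gm14742 and Gm11784 share 24.3%, 19.6% and 32.5% of their stretches. The 7 loci sharing under 10% summed to 1.01 ± 0.376 and 11.3 ± 3.08 CPM (SD, n = 3; ratio of counts 11.1, 95% interval 7.49 to 17.1), or without Gm14029 to 0.828 ± 0.244 and 8.67 ± 0.901 CPM (ratio 10.5, 6.78 to 17.03), and the 8 sharing over 50% to 0.409 ± 0.152 and 28.4 ± 0.784 CPM (68.3, 38.0 to 137). The limits require near-silence in control and reads in the other group of every locus, so these ratios only describe the chosen loci. Gm6189 counts as fully shared only because the noncoding gene Gm29125, which has no row in the table, is annotated over the same place. It shared 3.39% with genes elsewhere, and without such overlaps 7 loci shared over 50% and 9 under 10%.

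Copies outside the 36 were mostly higher in the Rif1-KO-labelled libraries as well. The table holds 92 genes at least 80% identical to a locus over at least 50% of the shorter transcript. Of these, 36 had no count, 47 had a higher CPM in the Rif1-KO-labelled libraries and 9 a lower one, against 12723 higher and 11294 lower among all symbols read. Copies with a Gm or Rik symbol that met the limits had been taken into the 36, and reads may be divided among copies. Of the 12 that could be tested, 7 rose, 3 fell and the other 2 missed the threshold (26.1% and 24.8% of all tested genes rose and fell), but some of these passed the filter only through the Rif1-KO-labelled libraries. Among 42 relatives with a gene name, found by protein identity of at least 40%, 8 of the 16 tested rose, 3 fell and 5 missed the threshold. Their median log2 fold change was 0.10 against 0.00 for all tested genes. The rises include BB287469, Tmem92-ps and Tdpoz3, which passed the filter only through the Rif1-KO-labelled libraries, so the number of rises is a description. Besides those above, Eif4a2, a translation helicase gene, rose from 1010.4 ± 50.2 CPM to 1365 ± 25.2 CPM (log2 fold change 0.43 ± 0.05, adjusted p = 3.01e-07, edgeR).

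Genes next to the loci were higher more often than lower. The nearest tested gene on each side of a locus, in the gene order of GRCm38, gave 53 genes. Of these, 26 rose (49.1%), 4 fell (7.55%) and 23 did not pass, with a median log2 fold change of 0.23, against 26.1% and 24.8% of tested genes and a median of 0.00. Some neighbours are themselves copies of a locus, such as Tmem92-ps, BB287469, Tdpoz3 and AA623943. These had 0 to 3 control counts and passed the filter only through the Rif1-KO-labelled libraries, so their rises are a description. Without the 8 copies and relatives, a choice made after seeing the data, 19 of 45 rose (42.2%) and 4 fell (8.89%). The 4 that fell were Atf7ip, Snw1, Prim2 and Gm9008, which lie beside Gm8994, Gm8300, Gm5698 and Gm5576.

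The neighbours with the lowest p, copies aside, were expressed in control. Slc20a1, beside Gm14029, rose from 453 ± 4.00 CPM to 958 ± 14.5 CPM (log2 fold change 1.08 ± 0.04, adjusted p = 1.81e-13, edgeR). Emp1, a membrane protein gene beside Gm8994, rose from 12.002 ± 0.454 CPM to 31.2 ± 0.855 CPM (1.38 ± 0.09, adjusted p = 1.8e-10, edgeR). Prkx, a kinase gene beside Gm14742, rose from 32.1 ± 2.31 CPM to 63.3 ± 3.89 CPM (0.98 ± 0.07, adjusted p = 9.48e-10, edgeR). Other neighbours did not pass. Col1a1 beside Gm11543 stood at 2.38 and 2.06 CPM, and Pop4 beside Gm5590 at 45.0 and 44.8 CPM. Apart from copies and relatives, no neighbour changed by more than 1.38 on the log2 scale.

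**Figure D5:**
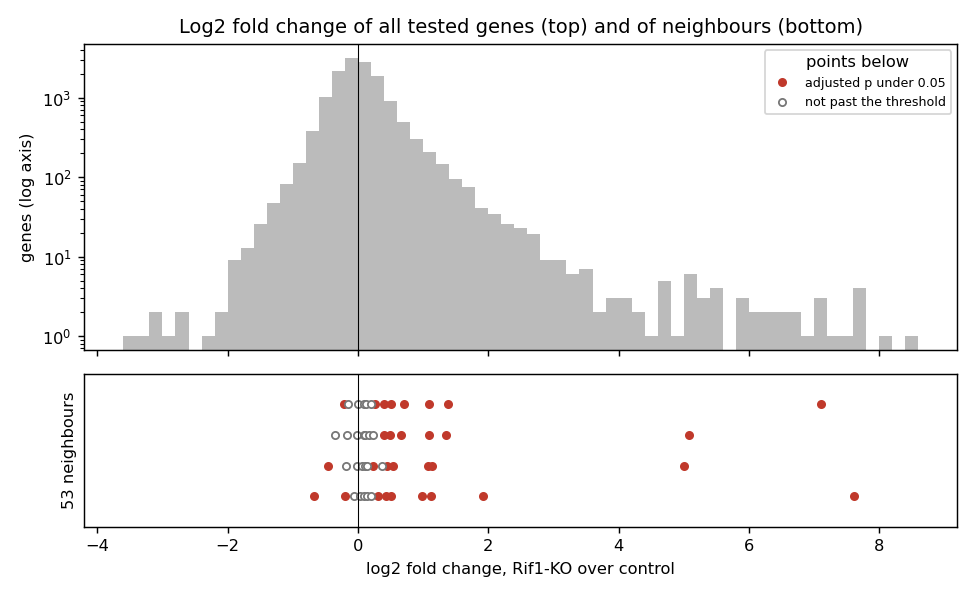
Number of tested genes by log2 fold change, on a log axis (top), and the log2 fold change of the 53 neighbours (bottom, filled where the adjusted p is under 0.05). Most neighbours lie between −0.67 and 1.38, and the 4 points above 5 are copies or relatives of the loci with 0 to 3 control counts, whose fitted values are not resolved.

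Other genes of the two-cell-like state were compared from a list without the 36. Of 32 such genes in the table, 22 were tested, 18 rose and 4 did not pass (Usp26, Obox6, Trim43b and Trim43c), where 26.1% of all tested genes rose and 24.8% fell. Of the 22, however, 17 had 5 or fewer control counts and passed the filter only through the Rif1-KO-labelled libraries, so the number of rises is a description. The median log2 fold change was 6.20 as fitted, and 4.62 with the 5 genes without control counts at their lower bound, against 0.00 for all tested genes. Usp17l5 had 2 control counts and 267, Dub1 2 and 236, Dub1a 2 and 209, Dub3 4 and 200 and Zscan4d 2 and 192 counts, genes of ubiquitin proteases and of a zinc finger family. Dux, the gene of the factor that drives the state, had 0 and 20 counts and was not tested.

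Known regulators of that state, most of them repressors but some activators, were all expressed in both groups and changed by less. The calls were not divided by role, so a fall named below is not by itself that of a repressor. Rises were called for 4 of the 41 tested, falls for 20 and neither for 17 (9.76% rose and 48.8% fell, against 26.1% and 24.8% of all tested genes), with a median log2 fold change of −0.12 against 0.00. Trp53 fell from 230 CPM to 136 CPM (log2 fold change −0.76 ± 0.04, adjusted p = 4.56e-11, edgeR). Ncl, the nucleolin gene, fell by 0.76 ± 0.06, and the DNA methyltransferase gene Dnmt1 by 0.49 ± 0.05 on the log2 scale. Lin28a, Trim28 and Chaf1b fell by 0.47 ± 0.04, 0.47 ± 0.05 and 0.48 ± 0.05. Dppa2, an activator of Dux, was among those that rose (0.61 ± 0.13, adjusted p = 0.000501, edgeR), with Dppa4, Zmym2 and Whsc2. Both lists were drawn up with earlier results of these data known and are not independent evidence of a direction.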

How the data were processed

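The authors deposited raw counts per gene symbol, 1 table per library. The submitters' processing notes name STAR, featureCounts 1.6.2 and the build mm9. Not given in the sources used here are the annotation, the strand setting and the treatment of multiply mapped reads.

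From the deposited counts, CPM were computed on TMM-scaled library sizes, and the test was that of edgeR 4.0.16 under R 4.3.3 (filterByExpr, quasi-likelihood test, group as the only term, 6 libraries, 14250 genes, Benjamini-Hochberg adjusted p under 0.05), checked on simulated data. A group without counts was given a floor of 3 counts (0.113 CPM), and folds over 1 or more control counts carry exact 95% intervals. Both cover counting error only.

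Copies and relatives came from BLAST 2.17.0 on GENCODE vM21 transcripts and their translated coding parts, since no protein table was given. GRCm38 served for sequence, names and gene order only, because its build differs from that of the counts. Members and lists were chosen with earlier results of these data known. Named were the 12 members with the highest mean in the Rif1-KO-labelled libraries, the top of each family, 6 with little shared sequence, those nearest the limits, Rif1, and up to 6 genes per list by adjusted p. Others named were chosen after their values were seen. Alternatives were other scalings, no filter, DESeq2, a replicate block and left-out libraries. A result on a further gene is not reported here.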

Additional observations from a re-analysis of the deposited data

How the results depend on the processing

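Replicate numbers did not pair the libraries (correlations of same-numbered libraries 0.0793, −0.0646 and 0.0461). With a replicate block, 27 neighbours rose and 4 fell. The number of loci was 24 with limits of 4 and 40 counts, 118 with limits of 12 and 20, and 34 to 40 with 1 library left out. Without Rif1-KO replicate 2, Gm14029 left the set. The sum over the loci in the Rif1-KO-labelled libraries ran from 92.4 to 96.6 CPM with 1 library left out. Loci with over 50% shared stretches numbered 13 with 36-base stretches and 4 at a limit of 80%. With 2 neighbours per side, 44 of 102 rose (43.1%) and 15 fell. Without Rif1-KO replicate 1, 2 neighbours fell; over all left-out libraries 2 to 4 fell. Values of single genes under each alternative kept their call in 271 cases, lost it in 9 and gained it in 6, and 0 reversed in sign. Leaving out Gm14029, copies among the neighbours and genes at the same place were choices made after seeing the data. At these depths 1 count is worth about as much as most control values, so control levels of single loci are not resolved.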
